A study of Mus musculus with 9 samples.

Results

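Matrix metalloproteinases (MMPs) and their tissue inhibitors (TIMPs) were followed through RNA sequencing of mouse heart. The 10 listed genes were chosen by symbol and not by any measured value: Mmp2, Mmp3, Mmp9, Mmp13, Mmp14, Mmp15, Timp1, Timp2, Timp3 and Timp4. Of these, 7 were analysed among the 22851 genes of the count table, namely the 6 MMPs and Timp2, and Timp1, Timp3 and Timp4 were not analysed here. The table held 9 libraries in 3 groups of 3. All were from male mice, C57BL/6 in the labels and C57BL/6J in the methods of the study, aged 6 to 8 weeks when the experiment began. CK mice received citrate buffer. DCM mice received 1 intraperitoneal dose of streptozotocin at 180 mg/kg, which destroys the insulin-producing beta cells of the pancreas, and hearts were taken 12 weeks later as a model of diabetic cardiomyopathy. A normal diet is stated for this group. SPM mice received the same streptozotocin and also the polyamine spermine at 1 mg/kg, given daily over the 2 weeks that preceded the streptozotocin and on alternate days over the following 12 weeks. No library of spermine without streptozotocin was analysed here, so SPM compared to CK joins the effects of both agents.

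MMPs are zinc-dependent enzymes that are made as inactive precursors and cut proteins of the extracellular matrix once activated. TIMPs bind the active enzymes and block them, so matrix turnover in the heart depends on both families as well as on activation. In the failing and the diabetic heart the families are studied for their part in fibrosis and in remodelling of the collagen network. RNA levels do not report how much enzyme is active.

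The libraries held 29901300 to 39718680 counts on genes. The heart label was checked against markers: the 9 cardiomyocyte genes that could be read summed to 50240 to 66591 CPM (counts scaled to 1e6 library counts, with TMM factors) in a library, led by Myh6, whereas 8 retina genes summed to 15.9 to 21.7 CPM, of which Rom1 alone held 14.5 to 20.7. The check was made because the extraction protocol in the labels speaks of retinas. The sources state both 3 mice per group and mixed samples of several hearts, so a library may be 1 mouse or a pool. SPM replicate 2 had the pattern of a mixture of SPM replicates 1 and 3 and may not be an independent replicate. For 66.5% of 14529 genes its level fell inside the interval set by SPM replicates 1 and 3, whereas any other choice of 1 library and 2 bounds (251 choices) gave 11.0% to 53.9%. Of the 2656 genes without a count in SPM replicates 1 and 3, 1.13% had a count in SPM replicate 2, against 13.9% to 38.2% for the other choices. For the members, SPM replicate 2 lay between the other SPM libraries in 6 of 7, all but Timp2. If it is not independent, SDs over the SPM libraries and p-values of comparisons with SPM, which count it in n = 3, are too small. Tests that rest on the SPM group and pass are therefore given with and without it, and ranges, shares and patterns include it unless stated. Of the counts, 13.7% to 16.2% in the CK libraries and 15.5% to 18.9% in the DCM libraries were mitochondrial, against 21.1% or slightly less in each SPM library, with no overlap of SPM with the others.

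In the annotation of the GRCm38 build (GENCODE M21), Mmp3 and Mmp13 lie on the plus strand of chromosome 9, at chr9:7445822-7455975 and chr9:7272514-7283331. They belong to a cluster of 10 annotated Mmp genes, of which 5 were read here over 309.4 kb. The other members are apart from it, with Mmp2 at chr8:92827291-92853420, Mmp15 at chr8:95352268-95375080, Mmp9 at chr2:164940780-164955850, Mmp14 at chr14:54431612-54445364 and Timp2 on the minus strand at chr11:118301069-118355740. All 7 are protein-coding genes, and their counts are per gene and do not separate exons. The only gene annotated across a member is Cep295nl, which lies on the same strand within the Timp2 span over 10141 bases and was not analysed here, so reads from it cannot be told apart from those of Timp2 if they were counted there.

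The promoters of Mmp13 and Mmp3 are shown because these cluster genes moved in opposite directions in diabetes. The sequences are the 250 bases before the RefSeq start on GRCm38.p6, plus strand, at chr9:7272264-7272513 and chr9:7445572-7445821. Capitals mark an AP-1 motif (TGANTCA), a RUNX motif (AACCACA) and a TATA motif (TATAAA), each searched on both strands, and no marked motifs overlap.
Mmp13: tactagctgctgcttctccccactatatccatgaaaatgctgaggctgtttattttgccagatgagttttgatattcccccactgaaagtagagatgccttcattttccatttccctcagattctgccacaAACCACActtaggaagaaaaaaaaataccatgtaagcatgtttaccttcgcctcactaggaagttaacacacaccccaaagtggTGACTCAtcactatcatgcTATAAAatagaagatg
Mmp3: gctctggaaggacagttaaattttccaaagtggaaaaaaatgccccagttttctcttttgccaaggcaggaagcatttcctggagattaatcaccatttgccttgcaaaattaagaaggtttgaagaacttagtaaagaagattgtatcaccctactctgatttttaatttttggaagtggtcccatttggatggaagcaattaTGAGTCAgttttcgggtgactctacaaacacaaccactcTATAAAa
In Mmp13 the AP-1 letters TGACTCA stood 35 to 29 bases before the start, the TATA letters 16 to 11 bases before it and the RUNX letters 119 to 113 bases before it. In Mmp3 the AP-1 letters TGAGTCA stood 46 to 40 bases and the TATA letters 7 to 2 bases before the start, and the RUNX letters were not in this window. Of 32841 promoters of the same length, 6.75% held the AP-1 motif, 4.40% the RUNX motif and 12.4% the TATA motif. RefSeq promoters were matched for 5 of the 7 members, all but Mmp2 and Mmp9. Those of Mmp14, Mmp15 and Timp2 held none of these letters in the window. These matches are a description of the letters, and binding was not measured.

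Levels of different genes were compared in FPKM, fragments per kilobase of gene, scaled to the library total. Timp2 was the most abundant member in each group and Mmp13 the least, and the order Timp2, Mmp2, Mmp15, Mmp14, Mmp3, Mmp9, Mmp13 was the same in CK, DCM and SPM. In CK every library of a gene lay above every library of the next, except that Mmp9 and Mmp13 overlapped. In DCM and in SPM the only neighbours that overlapped were Mmp15 and Mmp14. The group means ran from 66.4 ± 1.31 FPKM for Timp2 to 0.666 ± 0.338 FPKM for Mmp13 in CK (SD, n = 3). The scatter plots of the members by library show these values.

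**Figure D1:**
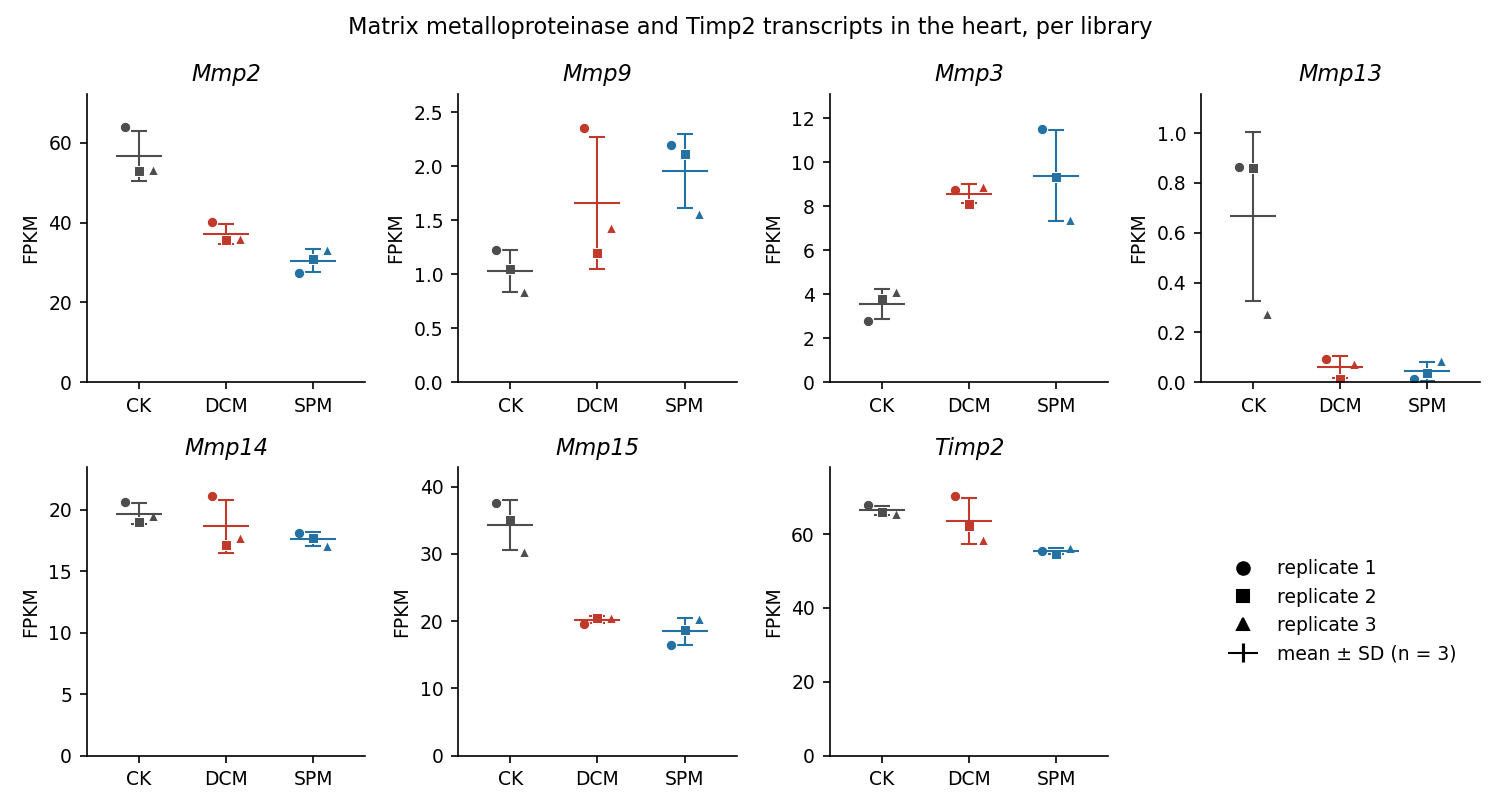
FPKM of the 7 members in each of the 9 libraries, with 1 panel per gene, an axis from 0 in each panel, the group on the horizontal axis, a marker shape for each replicate and bars for the mean ± SD (n = 3). All CK libraries of Mmp2 and Mmp15 (53.0 to 64.0 and 30.3 to 37.5 FPKM) sit above all DCM and SPM libraries, and all CK libraries of Mmp3 (2.80 to 4.10 FPKM) sit below them.

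The comparison of DCM with CK asks what streptozotocin diabetes changed. Of the 7 members, 4 passed the test (edgeR's quasi-likelihood test, adjusted p below 0.05), with Mmp3 higher and Mmp2, Mmp13 and Mmp15 lower. Among all 14402 genes tested 10.4% passed, 5.28% higher and 5.11% lower. DEGs, which had in addition to change by 1.5-fold or more, numbered 3 of 7 members (Mmp3 higher, Mmp13 and Mmp15 lower), against 4.34% of all genes, 2.03% higher and 2.31% lower. The median log2 fold change was 0.01 over the members and -0.0025 over all genes. Libraries of the groups did not overlap for 5 members, against 29.3% of all genes. In RNA of whole tissue, fewer cells of a type and less RNA per cell cannot be told apart.

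Mmp2, gelatinase A, made largely by fibroblasts, had 64.0, 53.0 and 53.1 FPKM in CK replicates 1 to 3. It had 40.1, 35.6 and 35.8 FPKM in DCM and 27.4, 30.9 and 33.1 FPKM in SPM. The 3 groups did not overlap, with CK highest and SPM lowest. Mmp2 fell by 0.52 on the log2 scale in DCM compared to CK (standard error 0.084, edgeR adjusted p = 0.00218), a 1.43-fold change that stayed under the fold limit of a DEG.

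Mmp9, the gelatinase stored in neutrophil granules, was low, at 1.22, 1.05 and 0.832 FPKM in CK, 2.36, 1.20 and 1.43 FPKM in DCM and 2.19, 2.12 and 1.56 FPKM in SPM. DCM replicate 1 was the highest of the 9, and DCM replicate 2 was just below CK replicate 1 in FPKM, though not once the TMM factors were applied. In DCM compared to CK the log2 fold change was 0.78 (standard error 0.252, edgeR adjusted p = 0.0727), which did not pass. DESeq2, which the study used, gave an adjusted p of 0.0394, and without DCM replicate 1 the log2 fold change was 0.46 (edgeR adjusted p = 0.302). Mmp9 passed in SPM compared to CK, higher by 1.02 on the log2 scale (standard error 0.199, edgeR adjusted p = 0.00773), and also without SPM replicate 2 (0.96, adjusted p = 0.0452).

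Mmp3, stromelysin-1, cuts proteoglycans and fibronectin and activates other MMP precursors. It had 2.80, 3.77 and 4.10 FPKM in CK and 8.77, 8.10 and 8.88 FPKM in DCM. In SPM it had 11.5, 9.31 and 7.36 FPKM. All diabetic libraries, treated or not, lay above all CK libraries, while the SPM libraries spread on both sides of the DCM range. Mmp3 rose by 1.36 on the log2 scale in DCM compared to CK (standard error 0.147, edgeR adjusted p = 0.000136), or 2.56-fold, and by 1.49 in SPM compared to CK (standard error 0.192, adjusted p = 0.00156), and passed without SPM replicate 2 (adjusted p = 0.00850).

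Mmp13, collagenase-3, is the main enzyme of the mouse that cleaves fibrillar collagen. It had 69, 78 and 22 counts in the CK libraries, 10, 1 and 7 in DCM and 1, 3 and 7 in SPM, so every diabetic library was below every CK library. The 18 counts of DCM against 169 of CK, scaled to library totals, gave a ratio of 0.0949 (95% counting interval 0.0549 to 0.155), and the 11 counts of SPM gave a ratio to CK of 0.0631 (0.0309 to 0.116). These intervals cover counting error only. The fitted log2 fold change was -3.29 in DCM compared to CK (standard error 0.617, edgeR adjusted p = 0.00518) and -3.82 in SPM compared to CK (standard error 0.667, adjusted p = 0.00496). The SPM value was -3.70 without SPM replicate 2 and -4.68 without SPM replicate 3. CK replicate 3 held less of it than the other CK libraries, and without that library the DCM value was -3.66. Chondrocyte markers, which mark another source of Mmp13, summed to 42.7 to 73.0 CPM over 9 genes in CK, led by Comp, 43.2 to 54.9 CPM in DCM and 36.5 to 53.0 CPM in SPM. In DCM 2 of the 9 and in SPM 1 were at 0 in all libraries. Of 4 tested in DCM compared to CK, 1 passed, Cnmd, which rose. Against CK, 1 of 5 tested rose in SPM and 1 fell, with and without SPM replicate 2. The part of chondrocytes in the level of Mmp13 was not tested.

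Of the membrane-type enzymes, Mmp14 (MT1-MMP), which activates the precursor of Mmp2 at the cell surface together with Timp2, had 20.6, 19.0 and 19.5 FPKM in CK, 21.1, 17.2 and 17.7 in DCM and 18.1, 17.7 and 17.0 in SPM. The groups overlapped, and Mmp14 passed in none of the 3 comparisons. Its log2 fold change was 0.01 in DCM compared to CK (standard error 0.083), -0.07 in SPM compared to DCM (standard error 0.079) and -0.07 in SPM compared to CK (standard error 0.061). The first was -0.0833 with limma and the other 2 were 0.0277 and 0.0450 with a correction for GC content. Mmp15 (MT2-MMP), the other membrane-type member, had 37.5, 35.0 and 30.3 FPKM in CK against 19.6, 20.5 and 20.5 in DCM and 16.4, 18.6 and 20.4 in SPM. All CK libraries lay above all others. Mmp15 fell by 0.67 on the log2 scale in DCM compared to CK (standard error 0.082, edgeR adjusted p = 0.000308), a 1.59-fold change.

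Timp2, which inhibits MMPs and also takes part in the activation of Mmp2, had 67.9, 65.9 and 65.4 FPKM in CK, 70.3, 62.0 and 58.2 in DCM and 55.5, 54.6 and 56.3 in SPM. CK and DCM overlapped, and the fitted log2 difference was 0.03 (standard error 0.076, edgeR adjusted p = 0.884), or -0.0681 with limma. The SPM libraries were below all others. Timp2 passed in SPM compared to CK at -0.16 (standard error 0.050, adjusted p = 0.0400), but not without SPM replicate 2 (adjusted p = 0.216) and not after a correction for GC content, where the log2 fold change was -0.06 (adjusted p = 0.429).

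**Figure D2:**
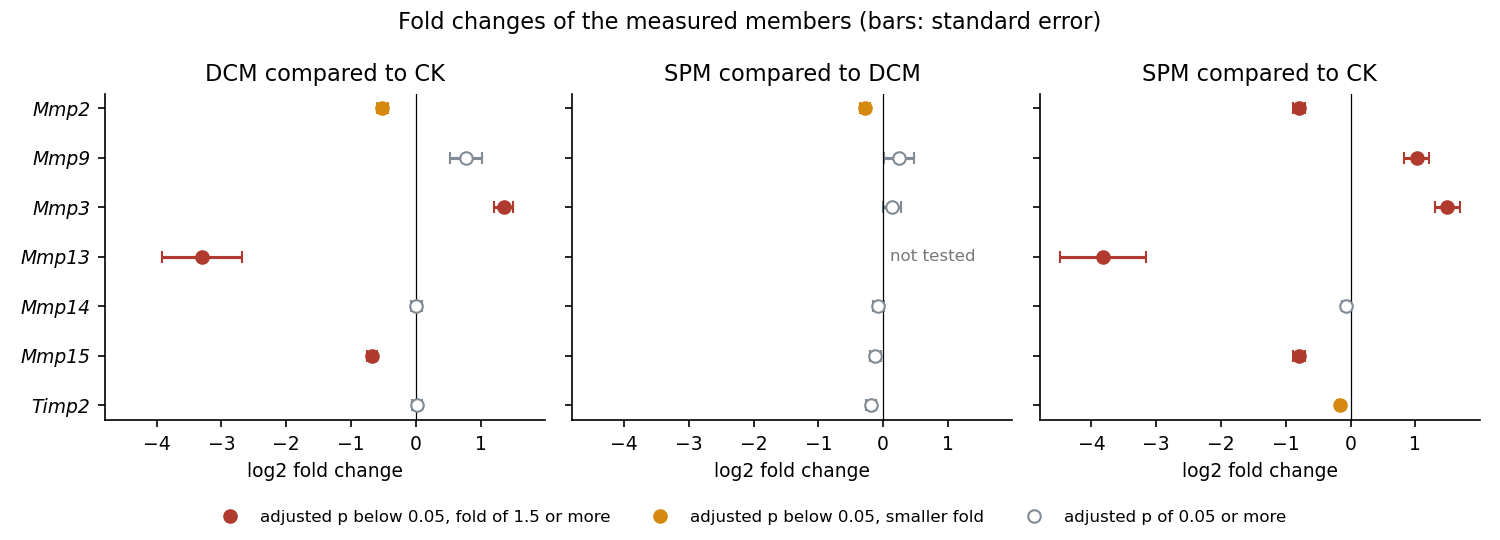
Log2 fold change (horizontal axis) of each member in the 3 comparisons, with bars for the standard error. Red points passed the test with a fold of at least 1.5, orange points passed with a smaller fold, and open points did not pass; Mmp13 had too few counts to be tested in SPM compared to DCM. Mmp3 is at 1.36 and Mmp13 at -3.29 in DCM compared to CK, and every tested member is between -0.28 and 0.24 in SPM compared to DCM.

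The comparison of SPM with DCM asks what spermine, begun 2 weeks before the streptozotocin, changed in the hearts of streptozotocin-treated mice. Blood glucose was not analysed here, so an effect on the diabetes itself cannot be told apart from one in the heart. The comparison shares the DCM libraries with the first, and SPM compared to CK shares libraries with both, so the 3 are not independent. Of 6 members tested, 1 passed (Mmp2, lower), against 16.6% of 14493 genes, 8.87% higher and 7.76% lower. By edgeR 0 members were DEGs, against 3.59% of all genes, 2.7% higher and 0.89% lower. At an unadjusted p below 0.05 by edgeR there were 2 of 6 members, Mmp2 and Timp2, against 5015 of the 14493 genes. DESeq2 gave 1 member that passed and 0 DEGs, against 566 DEGs over all genes. The median log2 fold change was -0.10 over the members and 0.0057 over all genes. Libraries did not overlap for 2 members, Mmp2 and Timp2, against 39.2% of all genes, and for the same 2 against 41.4% without SPM replicate 2.

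Mmp2 was lower again in SPM than in DCM, by 0.28 on the log2 scale (standard error 0.080, edgeR adjusted p = 0.0407). The call did not hold without SPM replicate 2 (-0.28, adjusted p = 0.147), nor with the correction for GC content (-0.16, adjusted p = 0.243), and without SPM replicate 2 no member passed. For Timp2 the log2 fold change was -0.18 (standard error 0.074, adjusted p = 0.105). The 3 members that were DEGs in DCM compared to CK gave no call here. The log2 fold change of Mmp3 was 0.14 (standard error 0.141, adjusted p = 0.512), and -0.04 without SPM replicate 1. Mmp15 had -0.12 (standard error 0.084, adjusted p = 0.341), which was 0.07 with the correction for GC content. Mmp13 had 11 counts in SPM against 18 in DCM, a ratio of 0.665 with a 95% counting interval of 0.284 to 1.49. Mmp9 had 0.24 (standard error 0.233, adjusted p = 0.489).

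Against CK, 6 of 7 members passed in SPM, all but Mmp14, against 27.4% of 14574 genes, 13% higher and 14.3% lower. Of these 5 were DEGs, against 9.21% of all genes, 5.08% higher and 4.12% lower. Mmp3 and Mmp9 were higher, and Mmp2, Mmp13, Mmp15 and, under the fold limit, Timp2 were lower. Without SPM replicate 2, 5 members passed and 5 were DEGs, while DEGs over all genes numbered 771, against 1342 with it. Mmp2 fell by 0.80 on the log2 scale (standard error 0.093, edgeR adjusted p = 0.00119), and Mmp15 fell by 0.80 (standard error 0.096, adjusted p = 0.00132). Without SPM replicate 2 the log2 fold changes were -0.81 for Mmp2 (edgeR adjusted p = 0.00790) and -0.80 for Mmp15 (adjusted p = 0.00861). With the correction for GC content they were -0.68 and -0.61, and both passed. The median was -0.16 over the members and 0.0022 over all genes, and libraries did not overlap for 6 members, against 46.3% of all genes, or 6 against 48.1% without SPM replicate 2.

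The make-up of the transcripts of the 6 MMP members differed between the groups, and it is given as a description with no test. Other MMPs that were read are left out of it. Of these, Mmp23, Mmp11 and Mmp28 had CK means of 10.1, 5.07 and 3.95 FPKM, above the 3.56 FPKM of Mmp3. The FPKM of the 6 MMPs summed to 116 ± 9.86 in CK, 86.3 ± 5.0 in DCM and 77.9 ± 2.06 in SPM (SD, n = 3). The 3 groups did not overlap in this sum, with ranges of 108 to 127, 82.6 to 92.0 and 75.6 to 79.5 FPKM. FPKM carry no TMM factors (0.967 to 1.05 over the libraries), so scaling is a part of the differences in the sum. Shares within a library do not depend on it. Mmp2 supplied 48.9% ± 1.67 of the sum in CK, 43.1% ± 0.557 in DCM and 39.0% ± 2.72 in SPM. Mmp15 supplied 29.5% ± 1.53, 23.4% ± 1.90 and 23.7% ± 1.96. Mmp14, which passed in no comparison, supplied 17.0% ± 0.919, 21.6% ± 1.21 and 22.6% ± 1.28. The share of Mmp3 was 3.12% ± 0.819 in CK, 9.95% ± 0.515 in DCM and 12.1% ± 2.99 in SPM, with no CK library above 3.80% and no other library below 9.25%. Mmp9 and Mmp13 together were a small part of the sum in each group, with Mmp9 at 0.887%, 1.90% and 2.52% and Mmp13 at 0.565%, 0.0687% and 0.0547% of it in CK, DCM and SPM.

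The sum of the 6 MMPs over Timp2 was 1.74 ± 0.113 in CK, 1.36 ± 0.0745 in DCM and 1.41 ± 0.0404 in SPM (SD, n = 3). CK libraries ranged from 1.65 to 1.87 and did not overlap the others, while DCM (1.31 to 1.45) and SPM (1.36 to 1.44) overlapped. Without SPM replicate 2 the SPM means were 77.6 FPKM for the sum, 1.39 for the ratio, and 38.9%, 23.7%, 22.7% and 12.2% for the shares of Mmp2, Mmp15, Mmp14 and Mmp3 (n = 2). The ratio to Timp2 is of RNA, leaves out the other MMPs and the 3 TIMPs that were not analysed here, and was not tested.

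**Figure D3:**
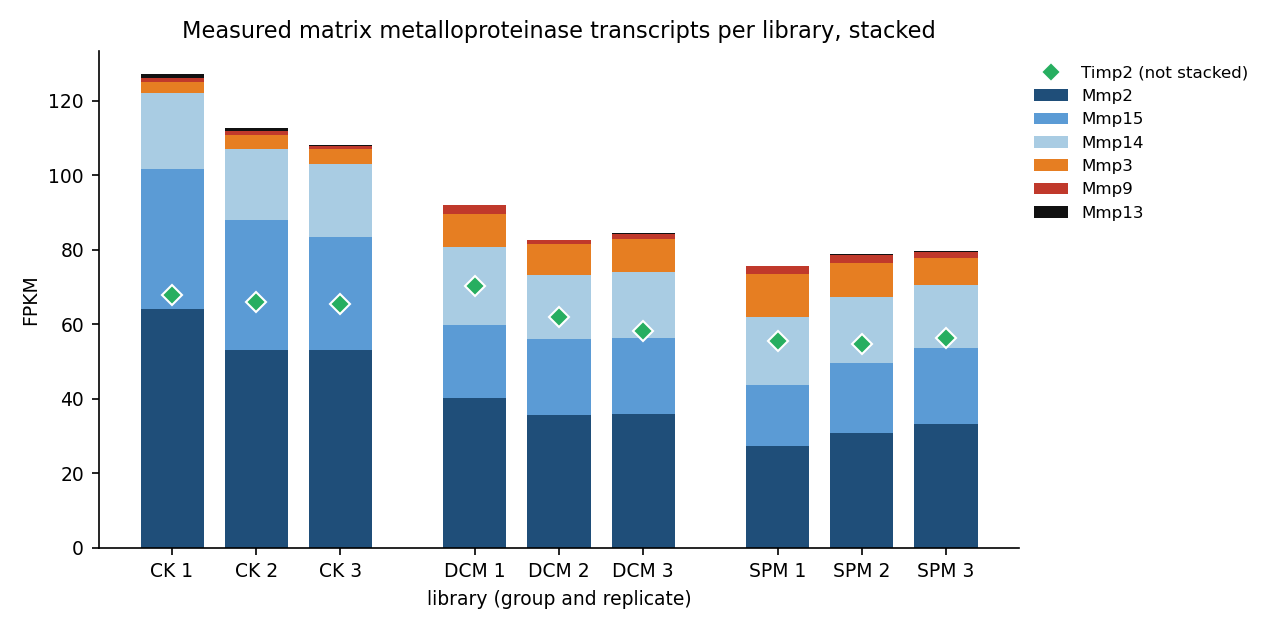
Stacked bars of the FPKM of the 6 MMPs in each library, labelled by group and replicate, with the FPKM of Timp2 as diamonds on the same axis. The bars reach 108 to 127 FPKM in CK but 82.6 to 92.0 in DCM and 75.6 to 79.5 in SPM, the Mmp3 segment is wider in all DCM and SPM libraries than in CK, and the diamonds lie between 54.6 and 70.3 FPKM.

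Within the cluster on chromosome 9, Mmp13 and Mmp3 lie with Mmp12 between them, followed by Mmp8 and Mmp27. Mmp12, the macrophage elastase, had 12, 32 and 29 counts in CK, 29, 3 and 32 in DCM and 29, 31 and 40 in SPM, with overlapping groups. Mmp8, the neutrophil collagenase, had 6, 5 and 1 counts in CK, 6, 5 and 10 in DCM and 71, 42 and 27 in SPM. All SPM libraries were above all others. Mmp8 rose by 2.83 on the log2 scale in SPM compared to DCM (standard error 0.476, edgeR adjusted p = 0.0107) and by 3.55 in SPM compared to CK (standard error 0.577, adjusted p = 0.00381). Without SPM replicate 2 the first was 2.89 with an adjusted p of 0.0520, which did not pass, and the second 3.61 with an adjusted p of 0.0180. It was too low to be tested in DCM compared to CK. For Mmp27 there were 14, 10 and 4 counts in CK, 8, 11 and 16 in DCM and 21, 24 and 16 in SPM, and it passed in no comparison.

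**Figure D4:**
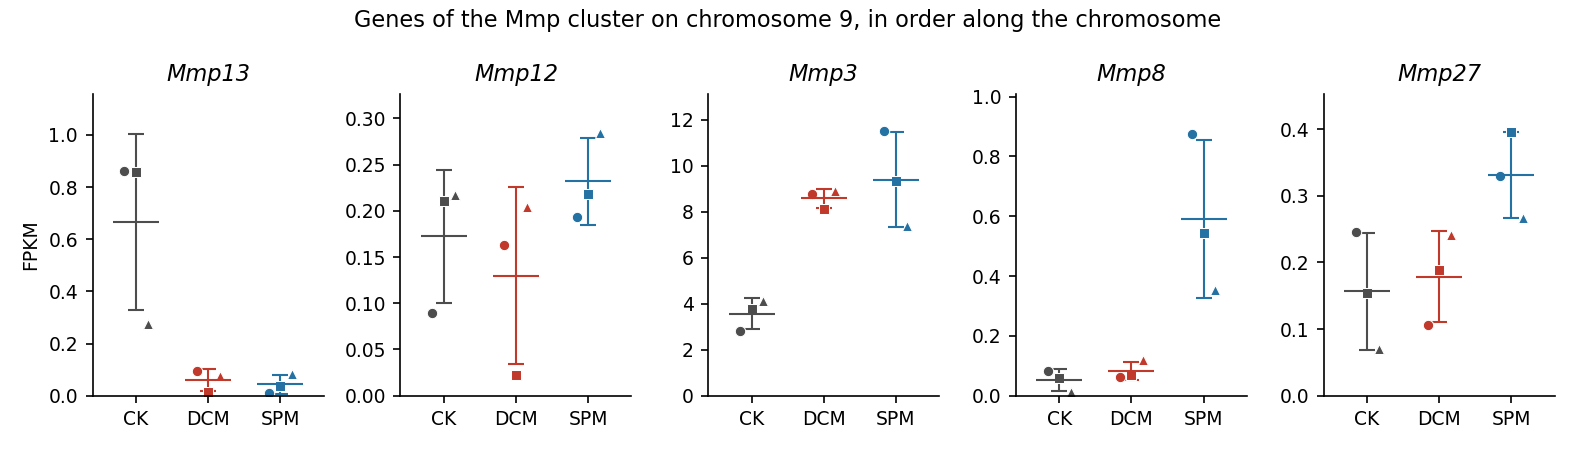
FPKM (vertical axis, from 0 in each panel, with a scale of its own) of the 5 genes of the cluster that were read, from left to right in the order of their start, by group. Circles, squares and triangles are replicates 1, 2 and 3, and bars show the mean ± SD (n = 3). Mmp13 is high in CK alone (0.275 to 0.863 FPKM), Mmp3 is low in CK alone, and Mmp8 is high in SPM alone (0.354 to 0.875 FPKM).

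Neutrophil markers are given beside Mmp8 and Mmp9. The 13 listed genes, led over the 9 libraries by S100a9, Csf3r and Lcn2, summed to 8.46 to 28.6 CPM in CK, while DCM had 20.2 to 36.8 and SPM 40.0 to 77.7. The highest CK value rested on Ltf (lactoferrin), which had 606 counts in CK replicate 2 and 7 and 2 in the other CK libraries. Without it, a choice made after its values were seen, the other 12 genes summed to 8.40 to 15.5 CPM in CK, and the DCM range of 20.1 to 36.8 lay above CK and the SPM range of 39.7 to 77.1 above both. Of those tested, 3 of 6 rose in DCM compared to CK and 7 of 8 in SPM compared to DCM, or 1 without SPM replicate 2. Against CK, where both Mmp8 and Mmp9 passed, 8 of 9 rose in SPM, or 7 without SPM replicate 2. In CK and DCM, 2 and 1 of the 13 were at 0 in all libraries. The part of these cells in the levels of Mmp8 and Mmp9 was not tested.

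Other MMPs were read for 11 of 17 listed genes, and the rest were not analysed here. Over all genes tested, 10.4% passed in DCM compared to CK, 16.6% in SPM compared to DCM and 27.4% in SPM compared to CK. Counts of this and the other lists stand beside these shares, in which SPM replicate 2 is included for SPM. In DCM compared to CK 1 of 8 tested passed, Mmp28 (epilysin), at 0.46 (edgeR adjusted p = 0.0266). Mmp8 and Mmp17 were the 2 of 9 that passed in SPM compared to DCM. Mmp17 (MT4-MMP), which is anchored to the membrane by a lipid, had 1.24, 1.14 and 1.3 FPKM in CK, 1.05, 1.32 and 1.08 in DCM and 0.717, 0.655 and 0.802 in SPM. It fell by 0.66 on the log2 scale in SPM compared to DCM (standard error 0.152, adjusted p = 0.0215), but did not pass without SPM replicate 2 (adjusted p = 0.113). Against CK, 3 of 9 passed in SPM, namely Mmp8, Mmp17 and Mmp23 (-0.36, adjusted p = 0.0314), of which Mmp8 alone passed without SPM replicate 2. The median log2 fold change of this list was -0.11, -0.14 and 0.15 in the 3 comparisons in turn. Mmp28 and Mmp23 are named here after their values were seen.

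The related ADAM and ADAMTS proteases, shed membrane proteins and cut proteoglycans. Of 24 tested in DCM compared to CK, 7 fell and 1 rose, with a median log2 fold change of -0.30. Adamts12 (-0.94), Adamts4 (-0.80), Adam19 (-0.78) and Adamts9 (-0.67) were the DEGs with the largest changes. Adamts4, an aggrecanase, had 1.58, 1.19 and 1.04 FPKM in CK, 0.774, 0.611 and 0.658 in DCM and 0.307, 0.265 and 0.514 in SPM, with no overlap between the groups. From DCM to SPM 2 of the 24 rose and 1 fell, with a median of 0.16, and 0 passed without SPM replicate 2. Adamts8 rose there by 2.21 (standard error 0.387, edgeR adjusted p = 0.0112), from 0.139, 0.198 and 0.197 FPKM in DCM to 0.412, 0.908 and 1.14 in SPM, against 0.324 to 0.451 FPKM in CK. Against CK 3 rose in SPM, Adamts8 and Adamts3 among them, and 7 fell, with a median of -0.06, or 1 and 5 without SPM replicate 2.

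Genes that activate, bind or inhibit MMPs were the next list. Of 20 tested in DCM compared to CK, 7 rose and none fell by edgeR, with a median of 0.15, and 5 were DEGs. Spock2 (testican-2), a matrix proteoglycan that modulates the activation of Mmp2 by membrane-type enzymes, had 5.88, 5.86 and 7.89 FPKM in CK and 22.8, 28.2 and 21.8 in DCM. It rose by 1.98 on the log2 scale (standard error 0.134, adjusted p = 4.83e-06) and had 25.8, 23.1 and 19.9 FPKM in SPM. Lcn2, which binds Mmp9 and is also on the neutrophil list, rose by 1.35, and Thbs2, which promotes the uptake of Mmp2, rose by 1.01.

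From DCM to SPM 2 of the 20 genes rose (Lcn2 and Itgb1) and 3 fell, with a median of -0.06 and with none past the fold limit. Among those that fell were Furin, which cleaves the precursors of membrane-type MMPs (-0.33, adjusted p = 0.0250), and Plat, tissue plasminogen activator (-0.29, adjusted p = 0.0263). These genes are named for this comparison after their values were seen, and 0 of the list passed without SPM replicate 2. Against CK 7 rose in SPM, with Lcn2 (1.92), Spock2 (1.90), A2m (1.20), a broad protease trap, and Thbs2 (1.09) as the DEGs, and 2 of 22 fell, with a median of 0.08. Without SPM replicate 2 these were 5 and 0.

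The next list held collagens and other matrix proteins that MMPs cut. Of 32 tested in DCM compared to CK, 22 fell, 16 of them as DEGs, and 0 rose. The median was -0.60, against -0.0025 over all genes. Col3a1, a chain of fibrillar collagen III, had 95.3, 94.5 and 89.4 FPKM in CK, 33.8, 27.3 and 29.0 in DCM and 19.2, 31.6 and 41.4 in SPM. Its log2 fold change was -1.54 (standard error 0.082, edgeR adjusted p = 8.85e-07). Col15a1 (-1.46), Col6a3 (-1.15) and Col1a1 (-1.06) followed. Fibroblast markers, which share Col1a1, Col1a2, Col3a1, Dcn, Lum and Fbln1 with this list, had sums of 5824 to 6084 CPM in CK, 5103 to 5685 CPM in DCM and 4758 to 5239 CPM in SPM. Gsn led them with 2856 to 3974 CPM over the 9 libraries, so these sums rest largely on 1 gene. Of the fibroblast markers, 8 of 14 fell in DCM compared to CK. Their part in the matrix genes and in Mmp2 was not tested.

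From DCM to SPM 3 of the 32 substrates rose (Dcn, Col14a1 and Lum) and 1 fell (Col4a2), all 4 named after their values were seen, with a median of -0.10, none past the fold limit and 0 passing without SPM replicate 2. The SPM libraries of Col3a1 spread from 19.2 to 41.4 FPKM and included the DCM range. Compared to CK 21 of 32 were lower in SPM and 1 was higher, with a median of -0.58, or 19 and 0 without SPM replicate 2.

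**Figure D5:**
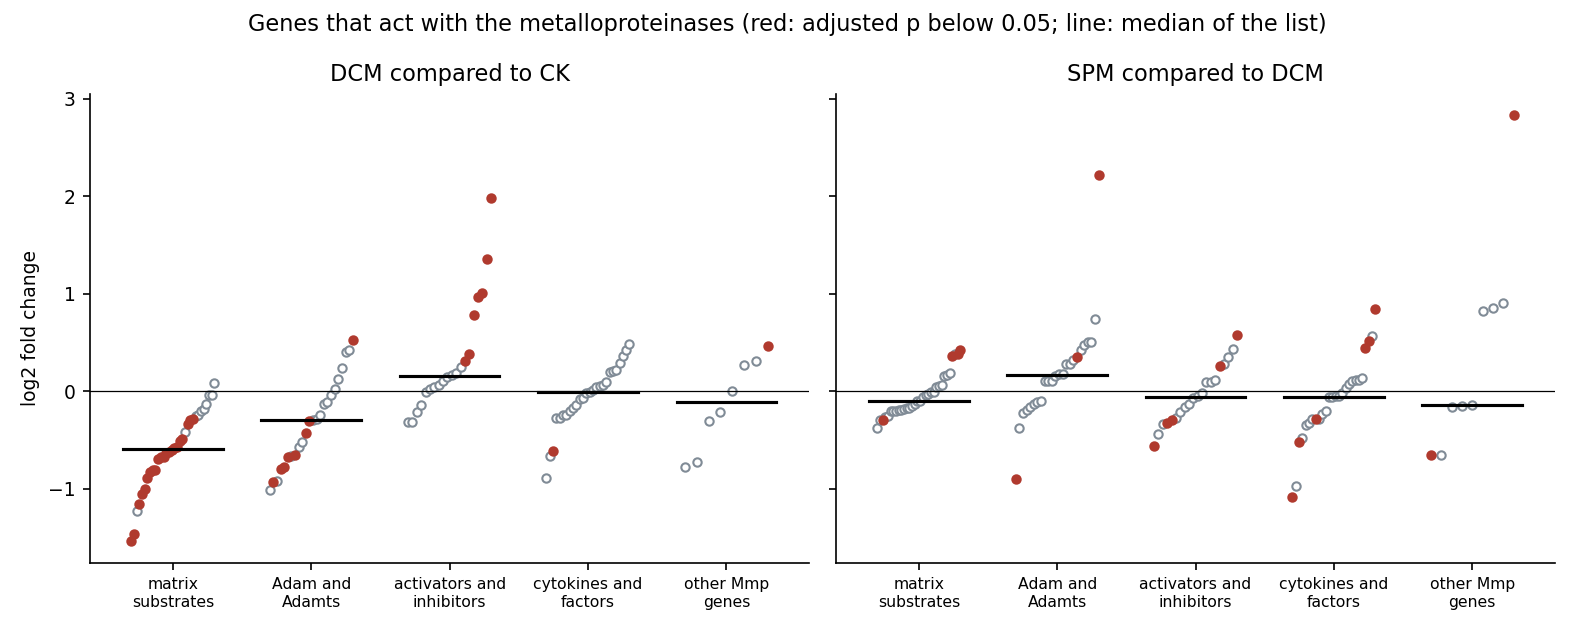
Log2 fold change (vertical axis) of each tested gene of 5 lists for DCM over CK and for SPM over DCM, where red points passed the test, open points did not and the line is the median of the list. The substrates have a median of -0.60 in DCM compared to CK with 22 of 32 red, all below 0, and the activators and inhibitors have 7 of 20 red, all above 0.

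Cytokines, growth factors and transcription factors that induce MMP genes made the last list. Of 26 tested in DCM compared to CK, 1 passed, Ets1, a factor that acts on several MMP promoters, which fell by 0.62 (standard error 0.065, edgeR adjusted p = 0.000113), and the median was -0.01. From DCM to SPM 3 of 26 rose and 3 fell, with a median of -0.06. Fos, a part of AP-1, was lower by 1.09 (standard error 0.298, adjusted p = 0.0351), but its CK libraries ranged from 5.34 to 47.1 FPKM. Edn1 (endothelin-1) was higher by 0.84 (standard error 0.233, adjusted p = 0.0364). Neither passed without SPM replicate 2 (adjusted p = 0.0959 and 0.0872), and 0 of the list did. Against CK 5 of 27 rose in SPM and 6 fell, with Edn1 (0.89), Fosl1 (-0.63) and Ets1 (-0.59) as DEGs and a median of -0.17. Without SPM replicate 2, 2 rose and 1 fell, with 1 higher and 0 lower DEGs.

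Markers of other cells that the tissue could hold are given as summed levels. The cardiomyocyte sum was lower in every SPM library (50240 to 55374 CPM) than in every CK (58783 to 65292) or DCM library (58291 to 66591). Of its 9 genes 2 were lower in SPM compared to DCM, and against CK 5 were lower and 1 higher, or 0 and, against CK, 1 lower without SPM replicate 2. The endothelial list, led by Cdh5, summed to 2508 to 2880 CPM in CK, while DCM had 2459 to 2682 and SPM 2307 to 2497, with 2 of 10 lower in DCM compared to CK. The smooth muscle list, led by Rgs5, summed to 1151 to 1302, 1126 to 1376 and 1085 to 1178 CPM. The macrophage list, led by Lyz2, summed to 858 to 1121 CPM in CK, while DCM had 742 to 865 and SPM 887 to 1470, with 7 of 15 lower and 2 higher in DCM compared to CK. From DCM to SPM 8 of these 15 were higher, or 1 without SPM replicate 2. The mesothelium list, led by Upk3b, had overlapping sums of 36.7 to 106.9 CPM over the 9 libraries. The liver list, led by Alb, summed to 14.7 to 52.0 CPM in CK, to 28.4 to 32.4 in DCM and to 33.7 to 373.5 in SPM. Of its genes 5 of 6 tested were higher from DCM to SPM, or 3 without SPM replicate 2. The part of these cells in the members' values was not tested.

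The genes most like each member DEG of the diabetic heart were sought by the root mean square difference of centred log2 CPM over the 9 libraries, among 12609 genes with a mean of at least 1 CPM. Those given for Mmp3 are Ahsg (0.123), a plasma protein of the liver list, and Hhipl1 (0.127). Of 5 liver genes tested in DCM compared to CK, 1 rose, Ahsg, and 1 fell, Alb, with a median of -0.36. For Mmp15 they were Pi16 (0.0589), which is on the fibroblast list, Tspan18 (0.0653) and Plxnd1 (0.0671), a semaphorin receptor of endothelial cells. Plxnd1 had 46.3, 39.7 and 38.1 FPKM in CK against 26.9, 26.0 and 25.2 in DCM and 20.9, 23.6 and 25.4 in SPM. For Mmp13 the nearest were farther away, with Aplnr, the apelin receptor, at 0.545, Gm28979 at 0.675 and Arsi at 0.680. Aplnr had 22.7 to 37.6 FPKM in CK, while DCM had 4.18 to 6.70 and SPM 2.46 to 4.57. These are descriptions over libraries that share depth and group, with no test.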

How the data were processed

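RNA was measured in 9 libraries, assigned to CK, DCM or SPM by their labels. The authors deposited whole-number counts per gene and FPKM values per library, and state that reads were filtered with fastp 0.18.0. The deposited FPKM equal the counts divided by the library total and by 1 length per gene (largest relative deviation 8.58e-13). The submitters' processing notes name Bowtie 0.12.2 and the builds mm8 and mm9 without saying which step used them, whereas 22820 of 22851 identifiers matched GENCODE M21, which gave symbols and GRCm38 positions.

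Each comparison was fitted on its own 6 libraries over all genes with edgeR 4.0.16 in R 4.3.3 (filterByExpr, TMM factors 0.967 to 1.05, quasi-likelihood test, Benjamini-Hochberg). DEGs needed an adjusted p under 0.05 and a 1.5-fold change or more. Standard errors are the log2 fold change divided by the square root of F. P-values weigh a group difference against the spread between these libraries, each of which may be 1 mouse or a pool. Counts of genes whose libraries did not overlap were read on TMM-scaled CPM, and overlap of values printed in FPKM was read in FPKM. The main edgeR setting of each comparison was also run on simulated data in which 200 genes changed. The simulation gave all genes the same dispersion and did not cover the alternatives.

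The members, gene lists and rules were chosen with earlier results of these data known. Named genes were all members, any gene annotated across one, up to 4 DEGs with the largest change per list and comparison, the 3 most abundant markers of a list (the leading ones are printed) and the 3 nearest genes by pattern for each member DEG, on the log2 CPM scale (prior count 2). Some genes that meet this rule are not reported here. Alternatives were DESeq2 1.42.0, RLE, a replicate block, 1 fit over all 9 libraries, no filter on low counts, a filter at 1 CPM in 3 or more libraries, limma 3.58.1 on log2(FPKM + 0.1) and on log2(FPKM + 1), an offset for GC content (lowess span 0.3), a fold of 1.3 and each library left out. Descriptions without SPM replicate 2 and the neutrophil sum without Ltf were added after seeing the data. Replicate numbers were not used to pair the libraries in the main fits. Figures and summaries used Python 3.11.15.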

Additional observations from a re-analysis of the deposited data

How the results depend on the processing

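Member counts in DCM compared to CK and in SPM compared to CK stayed within 1.5 times under all alternatives, with 2 to 4 and 4 to 5 DEGs and 3 to 5 and 5 to 6 members past the test. In SPM compared to DCM 0 members were DEGs under every alternative, and the 1 member past the test became 0 with 1 fit over all 9 libraries, with limma on log2(FPKM + 0.1) or log2(FPKM + 1) and with the GC offset. Leaving out 1 library gave 0 to 1, with 0 without DCM replicate 1 or 2 or SPM replicate 1 or 2. The 1 without DCM replicate 3 was Timp2 (-0.25, adjusted p = 0.0467), while Mmp2 lost its call (0.0603). Mmp2 lost its call there under 9 of 15 alternatives (adjusted p 0.0104 to 0.243), Timp2 in SPM compared to CK under 10 of 15 (0.00605 to 0.429), and Mmp9 in DCM compared to CK gained one under 4 of 15 (0.00800 to 0.302). The causes were not tested. Values that changed sign were all of differences that did not pass. In DCM compared to CK, limma gave Mmp14 -0.0833 and -0.0794 and Timp2 -0.0681 and -0.0671 with the smaller and larger pseudocount, and leaving out 1 library gave Mmp14 -0.0654 to 0.0564 and Timp2 -0.0307 to 0.0862. In SPM compared to DCM, the GC offset gave Mmp14 0.0277 and Mmp15 0.0678, and leaving out 1 library gave Mmp14 -0.118 to 0.0026 and Mmp3 -0.0403 to 0.284. For Mmp14 in SPM compared to CK the GC offset gave 0.0450. With the replicate number as a block, 4, 1 and 5 members passed in DCM compared to CK, SPM compared to DCM and SPM compared to CK, against 4, 1 and 6, and the call lost was Timp2. Same-numbered libraries correlated at -0.0746 to 0.205 and others at -0.284 to 0.217. These ranges overlap and cannot show whether the numbers pair the libraries. DEGs over all genes numbered 625 (403 to 857), 521 (56 to 791) and 1342 (698 to 1589). They were 403, 142 and 698 with limma on log2(FPKM + 1), and for SPM compared to DCM 134 with the GC offset, 56 without SPM replicate 2, 73 and 280 when DCM replicate 2 or 1 was left out, and 791 when SPM replicate 3 was. For SPM compared to CK they were 771 without SPM replicate 2. For Mmp13 in DCM compared to CK the values ran from -3.73 to -0.63, and in SPM compared to CK from -4.68 to -0.65, the smallest falls with the pseudocount of 1, and it was not tested at 1 CPM in 3 libraries. Genes with few counts, Mmp13 and Mmp8 above all, are limited by depth.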
